A study of Mus musculus with 20 samples.

Results

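Tcf23, Ankrd22, Mboat1, Tm4sf4 and Slc27a6 were examined here as 5 genes that were strongly higher in mouse intestine expressing mutant BRAF and strongly lower when MEK was inhibited, out of 25043 named genes on the arrays. The members are every probe that the array design names after one of the 5 symbols, which gave 1 probe for each gene. The genes were chosen by their measured differences, for a large rise in BRAFV600E or a large fall under MEKi on these same arrays, with no numeric cutoff stated. Both differences are therefore given as a description, without a test, and tests are kept for measures that did not enter the choice.

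Transcript levels were measured in whole intestinal tissue of 20 C57BL6/j mice on 1-colour Agilent microarrays, in 4 groups named by the labels. Cre control mice (6 arrays) carried VillinCreER/0, a tamoxifen-inducible Cre recombinase driven by the Villin promoter of the gut epithelium. BRAFV600E mice (6 arrays) carried in addition 1 BrafV600E-LSL allele, which Cre switches on. Both of these groups were 8 to 12 weeks old, received 3 daily doses of 2 mg tamoxifen and were sampled 3 days after the last dose. Mice of the MEKi group (4 arrays) received the MEK inhibitor PD184352 on 3 days and those of the Vehicle group (4 arrays) its carrier alone, after 2 daily doses of 1 mg tamoxifen. Their genotype is not in the labels and comes from the figure legends, which call them Braf mutant, and the methods give no age for these 8 mice in particular, only 8 to 12 weeks as the usual age at induction and 8 weeks to 6 months as the range over the study. A further treatment text in the labels describes a statin, is the same for all 20 arrays and matches no group, so it was not used. Cre control and BRAFV600E mice thus address the early effect of the mutant kinase, and Vehicle and MEKi mice address how far that effect needs MEK. Because whole tissue was profiled, fewer cells of a type and less RNA per cell cannot be told apart.

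BRAF is a kinase that phosphorylates MEK, and MEK in turn phosphorylates ERK, which carries signals from growth factor receptors to transcription factors in the nucleus. The V600E form is active without an upstream signal. ERK activity raises a set of feedback genes that serve as its readout, among them Dusp6, a phosphatase that removes the activating phosphates of ERK, and Etv4, a transcription factor of the ETS family. The 5 genes have unlike products. Tcf23 encodes a basic helix-loop-helix (bHLH) transcription factor, and Ankrd22 a small protein with ankyrin repeats. Mboat1 encodes an acyltransferase that adds fatty acids to lysophospholipids, and Slc27a6 a member of the fatty acid transport family. Tm4sf4 encodes a membrane protein with 4 transmembrane passes, of the TM4SF or L6 family, known from intestine and liver.

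Because the 5 genes had been picked for moving together, the 250 bases before the annotated start of each are shown where the RefSeq promoter table (GRCm38.p6) held them, which was the case for 4 genes. Capitals mark each match, on either strand, to the core of ETS factor sites (CCGGAA or AGGAAG) or to the AP-1 site (TGANTCA). The windows are chr5:30968427-30968676 on the plus strand for Tcf23, chr19:34166042-34166291 on the minus strand for Ankrd22, chr13:30136240-30136489 on the plus strand for Mboat1 and chr3:57425160-57425409 on the plus strand for Tm4sf4, each written in the direction of its gene.
Tcf23: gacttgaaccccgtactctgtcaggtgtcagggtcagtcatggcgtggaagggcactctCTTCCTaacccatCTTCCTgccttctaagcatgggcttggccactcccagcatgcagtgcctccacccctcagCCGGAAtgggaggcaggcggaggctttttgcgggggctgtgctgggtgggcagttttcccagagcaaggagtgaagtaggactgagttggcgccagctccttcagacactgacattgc
Ankrd22: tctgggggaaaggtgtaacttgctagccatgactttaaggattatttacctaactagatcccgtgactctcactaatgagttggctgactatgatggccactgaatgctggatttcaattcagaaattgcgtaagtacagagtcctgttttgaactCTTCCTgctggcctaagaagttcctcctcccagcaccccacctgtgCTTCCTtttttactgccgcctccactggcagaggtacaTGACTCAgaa
Mboat1: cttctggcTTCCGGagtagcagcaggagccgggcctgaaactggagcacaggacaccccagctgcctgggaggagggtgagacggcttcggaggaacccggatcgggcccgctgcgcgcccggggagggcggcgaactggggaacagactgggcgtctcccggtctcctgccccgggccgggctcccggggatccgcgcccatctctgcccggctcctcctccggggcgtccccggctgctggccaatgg
Tm4sf4: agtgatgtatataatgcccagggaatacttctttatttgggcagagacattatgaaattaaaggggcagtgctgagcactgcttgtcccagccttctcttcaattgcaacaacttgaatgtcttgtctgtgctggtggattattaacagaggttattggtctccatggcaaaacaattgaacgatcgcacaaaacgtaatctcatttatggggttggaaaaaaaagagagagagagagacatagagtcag

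The letters of the ETS core occurred 3 times before Tcf23, with first bases 191, 178 and 118 bases before the start. They occurred 2 times before Ankrd22, at 94 and 48 bases, 1 time before Mboat1, at 242 bases, and 0 times before Tm4sf4. Of 32851 mouse promoter windows of this length, 38.2% held at least 1 such match, so its presence in 3 of 4 windows is a common feature. The AP-1 letters were found only before Ankrd22 among these 4 windows, from 10 to 4 bases before the start, and 6.75% of all windows held them. The E-box (CANNTG), to which bHLH proteins bind, was present in each of the 4 windows and in 66.2% of all. Neither the CArG box nor the TCF/LEF letters (CTTTGA) occurred in any of the 4, against 1.47% and 13.8% of all windows. The windows also differed in base composition, from 40.8% G and C for Tm4sf4 to 73.2% for Mboat1. The motifs were chosen after these sequences had been seen, and a match is a run of letters, not a shown binding site.

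On each array 60.8% to 76.8% of 59305 spots that were not controls were well above background, and 0 were saturated. Levels are log2 processed signal minus the 75th percentile of the same array, so a level of 0 means a signal equal to that percentile, which ranged from 525 to 1518. Slide 1 held all 6 Cre control arrays together with BRAFV600E replicates 1 and 2, BRAFV600E replicates 3 to 6 lay on slide 2, whose spike-in slope is recorded as 0, and the MEKi and Vehicle arrays lay on slide 3. Y-linked genes were high on 3 of 6 Cre control, 4 of 6 BRAFV600E, 2 of 4 Vehicle and 4 of 4 MEKi arrays, whereas the methods give equal numbers of males and females in the first 2 groups. The 8 epithelial markers were high throughout, with list means from 5.71 to 6.48, as the label intestine requires, and 0 of 8 passed the test in either comparison. Counts of called markers are read against the share of all genes called, which was 12.4% in BRAFV600E against Cre control (6.18% higher, 6.26% lower) and 1.98% under MEKi. In BRAFV600E, 2 of 8 enteroendocrine markers were lower, with list means of 1.20 to 1.75 against 1.89 to 2.36 in Cre control. Likewise 2 of 5 tuft cell markers were lower there, with list means of -2.57 to -1.81 against -1.74 to -1.54. Also lower in BRAFV600E were 2 of 6 goblet cell markers (1 was higher), 2 of 5 T cell and 2 of 4 macrophage markers, and 2 of 6 smooth muscle markers were higher, while 0 markers of any of these lists passed under MEKi. Markers of the exocrine pancreas reached a list mean of 7.55 in Vehicle replicate 2, while the lowest Vehicle array was at -4.02 and the MEKi arrays lay between -3.90 and -3.13. The part of these cell types in the results was not tested.

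Tcf23 (probe at chr5:31279066-31279125, plus strand, build mm9) had the largest rise of the 5 genes in BRAFV600E. In Cre control its level was -3.16 at the lowest, -2.46 at the median and -2.003 at the highest, and in BRAFV600E it was 1.78, 2.40 and 2.93. The groups lay 3.79 log2 units apart at their nearest arrays, and the processed signal rose from a median of 107 to a median of 6802. The means were -2.52 ± 0.43 (SD, n = 6) and 2.41 ± 0.37 (SD, n = 6), a difference of 4.93 (SE 0.23) or 30.5-fold.

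In the inhibitor experiment the level of Tcf23 was 1.87, 2.26, 2.47 and 2.28 in Vehicle replicates 1 to 4. Under MEKi it was -2.77, -1.80, -2.51 and -1.89. The groups did not overlap, and the mean fell by 4.46 (SE 0.27), a 22.0-fold difference. Side by side with the other experiment, the Vehicle arrays lay within the range of the BRAFV600E arrays and the MEKi arrays overlapped the Cre control arrays, with 2 of 4 above the highest of these. The experiments lay on different slides, so experiment and slide cannot be told apart in such cross-readings, here and for the other genes.

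Ankrd22 (chr19:34197482-34197541, minus strand, mm9) was near the detection limit in Cre control. Its level there was -5.41, -4.54 and -3.95 at the lowest, the median and the highest, and 5 of 6 arrays were well above background. In BRAFV600E the corresponding values were -1.15, -0.48 and 0.30. The groups were separated by 2.81 log2 units, and the means differed by 4.09 (SE 0.29), or 17.0-fold. With normexp background correction, which adds a fixed offset to the signals, the difference was 2.38. In Vehicle replicates 1 to 4 the level of Ankrd22 was -0.31, -0.25, 0.38 and 0.04. Under MEKi it was -3.30, -3.40, -3.40 and -3.92, with no overlap between the groups. The mean fell by 3.47 (SE 0.21), an 11.1-fold difference. Each of the 4 MEKi arrays was above each Cre control array, at -3.92 against -3.95 for the nearest pair, on different slides.

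Mboat1 (chr13:30338253-30338312, plus strand, mm9) kept an intermediate level under MEKi. Its level in Cre control was -2.23 at the lowest, -1.80 at the median and -0.64 at the highest. In BRAFV600E it was 1.80, 2.52 and 4.34, the last in replicate 2, which stood apart from the next highest BRAFV600E array at 2.61. The groups did not overlap, and the means differed by 4.30 (SE 0.43), or 19.7-fold. Without BRAFV600E replicate 2 the difference was 3.98, and within slide 1 alone, where that array is 1 of 2 BRAFV600E arrays, it was 5.07.

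Under Vehicle the level of Mboat1 was 2.84, 3.48, 3.16 and 3.43 in replicates 1 to 4. Under MEKi it was 1.09, 0.69, 1.33 and 0.83, again without overlap. The mean fell by 2.25 (SE 0.20), or 4.75-fold, which placed Mboat1 46th among 19230 tested genes ranked by the size of the fall. The mean under MEKi, 0.98 ± 0.28 (SD, n = 4), remained above the Cre control mean of -1.59 ± 0.64 (SD, n = 6), and the lowest MEKi array exceeded the highest Cre control array. That last comparison runs across slides and was not tested.

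Tm4sf4 (chr3:57245078-57245137, plus strand, mm9) gave a strong signal in every group. Its level in Cre control was 1.70, 2.43 and 3.03 at the lowest, the median and the highest. In BRAFV600E it was 5.49, 5.95 and 7.22, and the highest value was again in replicate 2. The groups lay 2.46 log2 units apart and the means differed by 3.72 (SE 0.32), or 13.2-fold, as the median processed signal went from 3186 to 69165. Vehicle replicates 1 to 4 had levels of 6.84, 7.54, 7.00 and 6.77, and the MEKi replicates 2.63, 3.61, 2.21 and 3.18. There was no overlap, and the mean fell by 4.13 (SE 0.35), or 17.5-fold. The highest level was in Vehicle replicate 2, the array with the pancreatic markers, and without it the difference was -3.96.

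Slc27a6 (chr18:58772048-58772107, plus strand, mm9) was close to or below the detection limit without the mutant kinase. It was well above background on 1 of 6 Cre control arrays, with levels of -7.16, -5.30 and -4.78 at the lowest, the median and the highest. All 6 BRAFV600E arrays were well above background, at -2.72, -2.01 and -1.47. The groups did not overlap and the measured means differed by 3.76 (SE 0.49). As 5 of the 6 Cre control values were not well above background, this size is not a measured fold. With normexp background correction the difference was 1.38, since the signal in Cre control ranged only from 4.51 to 21.3.

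Vehicle replicates 1 to 4 had Slc27a6 levels of -2.95, -2.70, -1.93 and -2.65. No MEKi array was well above background, so the size of the fall is not a measured fold. With normexp background correction the difference was -1.55. Set against the dimmest signal well above background on each MEKi array, the Vehicle mean was 8.57-fold higher. This limit is the lowest of any probe on the array, so the bound is only approximate for this probe. The measured MEKi values of -7.65, -5.58, -6.36 and -6.86 lay below that limit on each of the 4 arrays, and their order carries no meaning. The Vehicle arrays, in contrast, were all well above background.

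**Figure D1:**
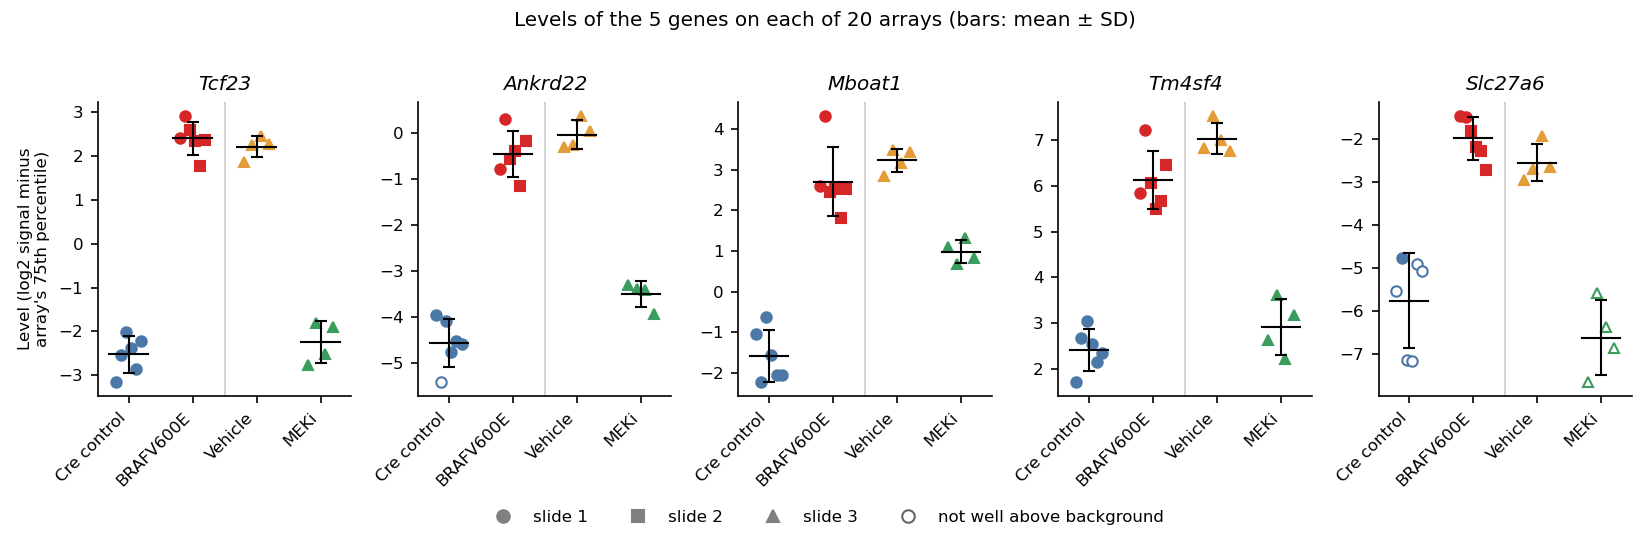
Level of each gene (log2 processed signal minus the 75th percentile of the array, y axis) on each of 20 arrays by group, with the mean and SD as bars, slides as symbol shapes and open symbols for arrays on which the probe was not well above background. For every gene the BRAFV600E arrays lie above the Cre control arrays and the MEKi arrays below the Vehicle arrays, and Mboat1 in BRAFV600E replicate 2 stands apart at 4.34.

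The groups did not overlap for 5 of 5 genes in either comparison, which is what they had been picked for. Among all tested genes, 4.19% were higher in BRAFV600E without overlap (of 19036) and 5.75% were lower under MEKi without overlap (of 19230). Ranked by the size of the rise in BRAFV600E, Tcf23 was 3rd, Mboat1 5th, Ankrd22 6th and Tm4sf4 12th. Ranked by the fall under MEKi, Tcf23 was 3rd, Tm4sf4 5th and Ankrd22 8th, with Mboat1 at 46th. Slc27a6 is given no rank, since most or all arrays of its lower group were not well above background. For Tcf23, Mboat1 and Tm4sf4, which were detected on every array, the rises with normexp background correction were 4.35, 4.06 and 3.68, and the MEKi minus Vehicle differences were -4.10, -2.21 and -4.08. Within slide 1, the slide that held both groups, the rises were 5.20 for Tcf23, 5.07 for Mboat1, 4.31 for Ankrd22 and 4.13 for Tm4sf4. With the level of the Y-linked genes in the fit, the falls lay between -4.42 for Tcf23 and -2.01 for Mboat1.

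**Figure D2:**
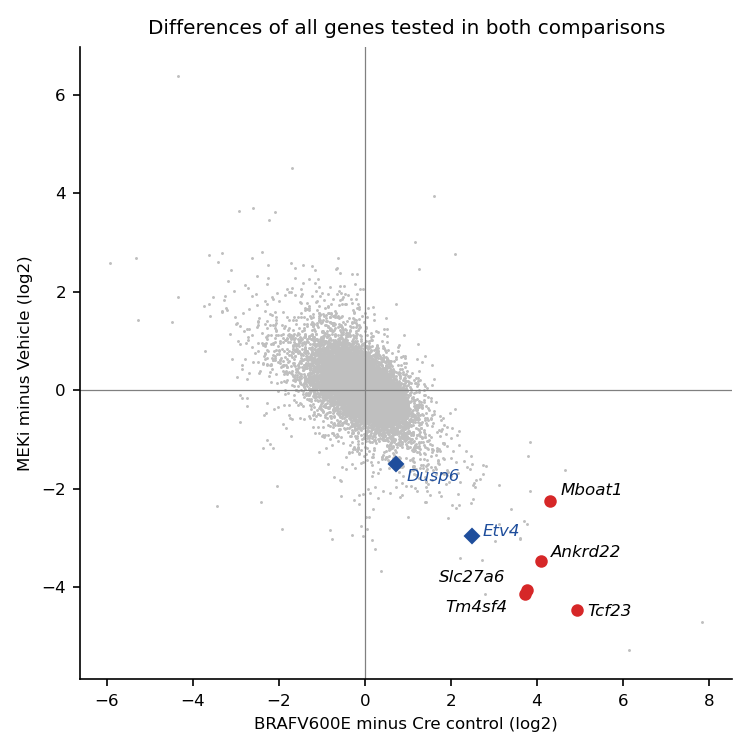
Difference between BRAFV600E and Cre control (log2, x axis) against the difference between MEKi and Vehicle (log2, y axis), 1 point for each gene tested in both, with the 5 genes in red and Dusp6 and Etv4 as blue diamonds. The 5 genes lie at the lower right, and Mboat1 lies higher than the others at -2.25 on the y axis. The plot describes the choice of the genes and is no test of it, and Slc27a6 is drawn at its measured differences, although its lower groups were mostly or wholly below detection.

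The readouts of ERK activity, Dusp6 and Etv4, were measured on the same arrays. Etv4 was higher in BRAFV600E by 2.50 (limma adjusted p = 0.000172) and differed by -2.95 under MEKi (limma adjusted p = 0.00329), and in both cases the groups did not overlap. These values are those of its brighter probe. A dimmer Etv4 probe lay between -5.18 and -3.18 in Cre control and between -0.24 and 0.21 in BRAFV600E. Its levels were -0.32 to 0.40 in Vehicle and -3.99 to -3.10 under MEKi, so the size of the Etv4 difference depends on the probe. The dimmer probe entered no test, rank or correlation. Dusp6 rose by 0.72 in BRAFV600E (limma adjusted p = 0.00541), a call that ended with slide as a block and within slide 1 (adjusted p between 0.00170 and 0.122 over the alternatives). Its level under MEKi differed from Vehicle by -1.50 and did not pass (limma adjusted p = 0.0503, between 0.00927 and 0.162 over the alternatives), with 1 MEKi array at 3.48 and the lowest Vehicle array at 3.66. Braf itself, by its brightest probe, differed by 0.42 (limma adjusted p = 0.172) and by -0.50 (limma adjusted p = 0.190). Its dimmer probes were not tested, and whether any Braf probe separates the mutant from the normal allele was not analysed.

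Whether an array with more Dusp6 or Etv4 also had more of a given gene was asked within a group, since the order of arrays inside a group had not entered the choice. Over the 6 Cre control and the 6 BRAFV600E arrays, 20 such relations were computed. In 0 of 20 was the exact permutation p (two-sided, all pairings) under 0.05, either before or after Benjamini-Hochberg adjustment. Pearson's r ran from -0.60 for Tcf23 with Dusp6 in BRAFV600E (rho = -0.31, exact permutation p = 0.190 for r and 0.564 for rho) to 0.62 for Slc27a6 with Dusp6 in Cre control (rho = 0.66, exact permutation p = 0.0986 for r and 0.175 for rho). Every adjusted p of r was 1. Without the 2 arrays farthest from the median of the readout, the first of these turned to 0.34 and the second was 0.98, over 4 arrays each. Slc27a6 was well above background on only 1 of 6 Cre control arrays, so the second rests mostly on values below detection. Without the 2 farthest arrays the sign of r turned in 4 of 10 relations in Cre control and 5 of 10 in BRAFV600E. With 6 arrays the smallest p that the pairings allow for rho is 0.00278, which alone would not pass adjustment over 20 relations. Weak relations were not detectable, and strong ones could be missed. Among pairs of the 5 genes, for example, Tcf23 and Mboat1 in BRAFV600E had r = 0.87 with an exact permutation p of 0.0597. The count of 0 therefore cannot show that the genes and the readouts are unrelated. BRAFV600E replicate 5, the array with the highest Dusp6 level of its group at 4.83, had the lowest level of Tcf23, Ankrd22 and Mboat1. That array also had the lowest Etv4 level of the group, at 2.11, nearly equal to that of replicate 4. Within BRAFV600E, r with Dusp6 lay between -0.60 and -0.05, and r with Etv4 between -0.21 and 0.58. This difference between the 2 readouts was not tested. The groups form separate clusters, so no correlation over all 20 arrays was tested.

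**Figure D3:**
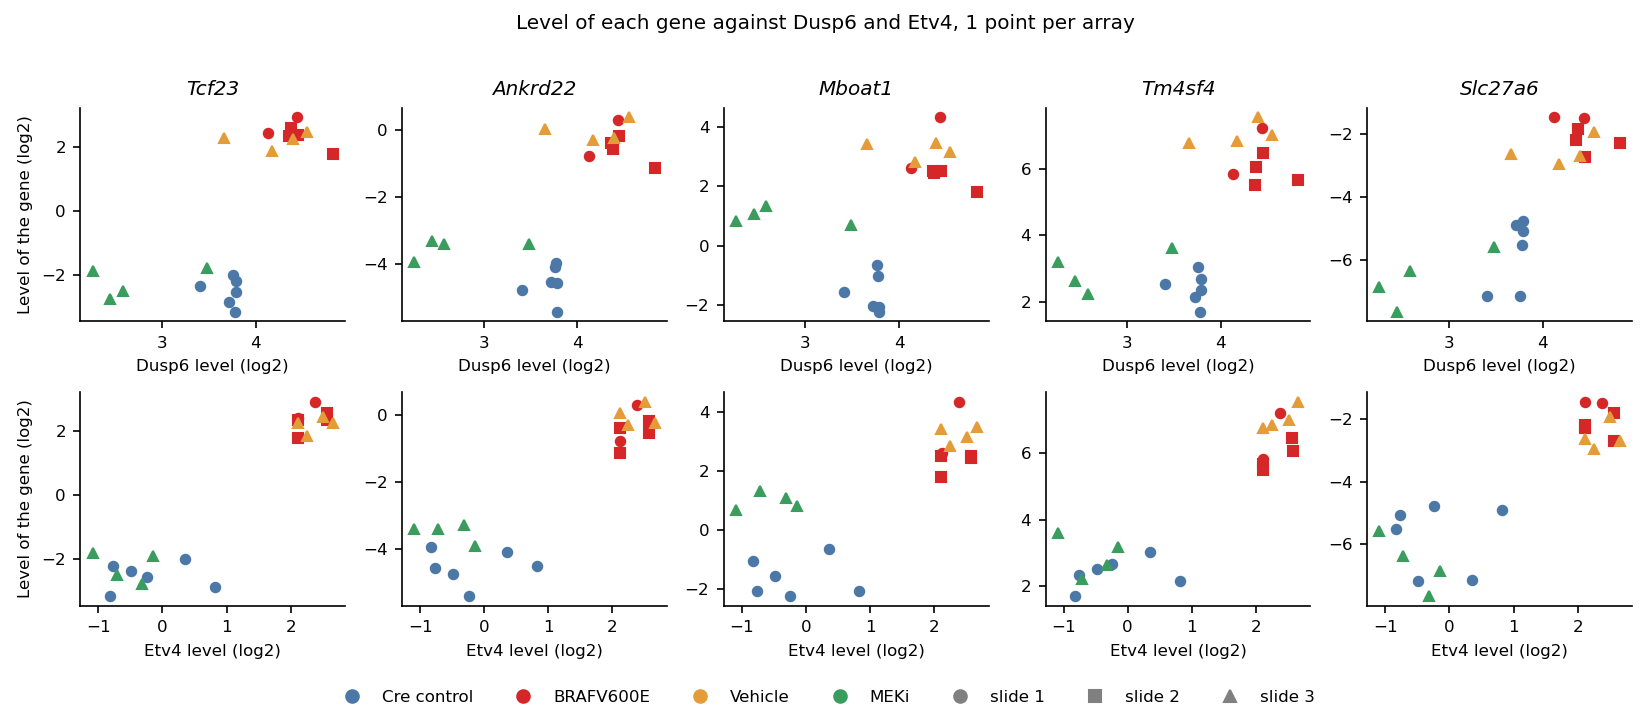
Level of each gene (y axis) against that of Dusp6 (upper row) and Etv4 (lower row) on the same array (x axis), all as log2 signal minus the 75th percentile, coloured by group and with slides as symbol shapes. The groups form separate clusters, and inside the clusters the points show no common slope, with r between -0.60 and 0.62 within Cre control and BRAFV600E. The highest r is that of Slc27a6 in Cre control, where it was mostly below detection.

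Among themselves the 5 genes ran in parallel over the BRAFV600E arrays more than over the Cre control arrays, as a description. In BRAFV600E all 10 pairs had a positive r, from 0.14 to 0.87 with a median of 0.77. In Cre control 4 of 10 pairs did, from -0.73 to 0.87. The pairs with Slc27a6 there were all negative, with r of -0.50, -0.36, -0.73 and -0.48. Slc27a6 was well above background on only 1 of 6 Cre control arrays, so part of this contrast rests on values below detection. After adjustment over these 20 pairs 0 passed (smallest exact permutation p = 0.0236, adjusted 0.187, with 2 pairs in BRAFV600E and 1 in Cre control under 0.05 before adjustment), and in BRAFV600E the sign turned in 4 of 10 pairs without the 2 farthest arrays. BRAFV600E replicate 2 had the highest level of Tcf23, Ankrd22, Mboat1 and Tm4sf4, so these pairs share 1 array at their upper end. That array had 67.8% of spots well above background and a 75th percentile of 1478, and replicate 5, the lowest for 3 of the genes, had 61.0% and 852. The difference between the groups in these correlations was not tested.

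The genes whose levels were most like those of the 5 over all 20 arrays were found by Pearson's r among 18742 other genes that were well above background on at least 10 arrays. The arrays share 4 group means, so r here measures mostly the pattern of those means and carries no p. For Tcf23 the closest were Aqp5, a water channel (r = 0.974), Tm4sf4 (r = 0.969) and Acsl3, an enzyme that activates long-chain fatty acids (r = 0.967). For Tm4sf4 they were Tcf23, Ankrd22 (r = 0.953) and Sqor, a mitochondrial sulfide oxidase (r = 0.944). Ankrd22 was closest to Anxa9, a member of the annexins (r = 0.963), then to Tcf23 and Pgap1, which remodels lipid anchors of membrane proteins (both r = 0.960). Mboat1 had other neighbours, namely S100a14 (r = 0.956), Akr1b8, an aldo-keto reductase (r = 0.956), and S100a6 (r = 0.955). S100a14 and S100a6 encode small calcium-binding proteins. Slc27a6 was closest to Errfi1, a feedback inhibitor of the EGF receptor (r = 0.942), Efl1 (r = 0.924) and Stn1 (r = 0.922). It was well above background on 1 of 6 Cre control and 0 of 4 MEKi arrays. Its values of r over the 20 arrays therefore rest partly on signals below detection.

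Ranked by the same measure, Etv4 was 13th for Tcf23 (r = 0.942), 16th for Tm4sf4, 39th for Ankrd22 and 502nd for Mboat1 (r = 0.781). For Slc27a6 it was 21st (r = 0.878). Dusp6 ranked 56th for Slc27a6 (r = 0.827), 557th for Tcf23, 852nd for Tm4sf4, 1537th for Ankrd22 and 4527th for Mboat1 (r = 0.382). Of these neighbours, Aqp5 had the largest differences, at 6.14 in BRAFV600E (limma adjusted p = 1.95e-05) and -5.28 under MEKi (limma adjusted p = 0.00362). Over the alternatives its differences shrank to as little as 3.20 and -3.41. Aqp5 was found through its likeness to Tcf23 and is no independent support. Akr1b8 and Efl1 did not pass the test under MEKi, with differences of -1.50 (limma adjusted p = 0.0572) and -0.82 (limma adjusted p = 0.0550).

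The relatives of the 5 genes were read against the share of all genes called at a limma adjusted p under 0.05, which was 12.4% in BRAFV600E against Cre control (6.18% higher, 6.26% lower) and 1.98% in MEKi against Vehicle (1.09% higher, 0.884% lower). Called relatives that went the way of their member in both comparisons were Tm4sf20 and Tm4sf5 in the TM4SF family and Acsl3 among the genes of fatty acid activation. Of the 4 TM4SF genes other than Tm4sf4, 2 rose in BRAFV600E and 2 fell under MEKi, with a list median of 0.36 against -0.02 over all tested genes and of -0.37 against 0.04. They were Tm4sf20, which rose by 1.06 (limma adjusted p = 0.00774) and fell by 1.95 (limma adjusted p = 0.0265), and Tm4sf5, which rose by 0.83 (limma adjusted p = 0.0182) and fell by 0.84 (limma adjusted p = 0.0383). Both already had high levels in Cre control, 4.60 ± 0.40 for Tm4sf20 and 5.85 ± 0.27 for Tm4sf5 (SD, n = 6). Tm4sf1, the founding member of the family, differed by -0.10 and 0.28 and did not pass (limma adjusted p = 0.830 and 0.700). The number of TM4SF genes called higher was 1 with slide as a block and 0 within slide 1, and the falls of Tm4sf20 and Tm4sf5 remained called in 8 and 6 of 16 alternatives.

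In the MBOAT acyltransferase family, 0 of 9 tested relatives of Mboat1 rose in BRAFV600E and 2 fell, and 0 of 10 passed under MEKi. Those that fell were Hhat, which attaches palmitate to Hedgehog proteins (log2 fold change -1.04, limma adjusted p = 0.0373), and Hhatl, which resembles it (log2 fold change -0.49, limma adjusted p = 0.0490, turned to 0.32 without scaling between arrays). Their calls held in 7 and 6 of 22 alternatives. Mboat2, the enzyme most like Mboat1, had a level of -3.84 ± 0.77 without the mutant kinase and of -4.49 ± 1.33 with it (SD, n = 6), a difference of -0.64 that did not pass (limma adjusted p = 0.476). Among 19 other acyltransferases and phospholipases, 2 rose and 2 fell in BRAFV600E and 0 passed under MEKi. Agpat5 rose by 0.58 (limma adjusted p = 0.00785) and Pla2g5 by 1.55 (limma adjusted p = 0.0435, called in 7 of 22 alternatives and not with slide as a block), while Agpat4 fell by 1.14 (limma adjusted p = 0.0227) and Lpcat2 by 0.53 (limma adjusted p = 0.0356, called in 9 of 22 alternatives, turned to 0.28 without scaling).

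Of 5 relatives of Slc27a6 in the SLC27 family, 0 rose and 1 fell in BRAFV600E, and 0 passed under MEKi. The gene that fell was Slc27a5, which takes part in bile acid conjugation in the liver (log2 fold change -0.90, limma adjusted p = 0.0279, called in 13 of 22 alternatives). Slc27a4, the fatty acid transport protein known from enterocytes, differed by 0.22 and -0.06, and Slc27a2 by 0.33 and -0.03, none of which passed (limma adjusted p = 0.425, 0.912, 0.392 and 0.969). Of 11 acyl-CoA synthetases and fatty acid carriers, Acsl3 rose from a level of -1.28 ± 0.36 to 0.93 ± 0.27 (SD, n = 6), by 2.21 (limma adjusted p = 2.52e-05), and this call held in 22 of 22 alternatives. Under MEKi it fell by 1.87 on the log2 scale (limma adjusted p = 0.0159, called in 11 of 16 alternatives). Acsl6, a synthetase known mainly from brain, was lower in BRAFV600E (limma adjusted p = 0.00984), but was well above background on 1 of 6 BRAFV600E arrays, so its size is not given, and the call ended with slide as a block, within slide 1 and without scaling.

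None of the bHLH partners and relatives of Tcf23 that were tested passed, 0 of 9 in BRAFV600E and 0 of 10 under MEKi. In these comparisons 30.1% and 16.4% of all genes had an unadjusted limma p under 0.05. Tcf21, a related bHLH factor, differed by -0.24 (limma adjusted p = 0.478) and 0.30 (limma adjusted p = 0.786). The E proteins and Id proteins, which pair with bHLH factors, belonged to this list, and the median difference of the whole list was -0.14 in BRAFV600E and 0.20 under MEKi.

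**Figure D4:**
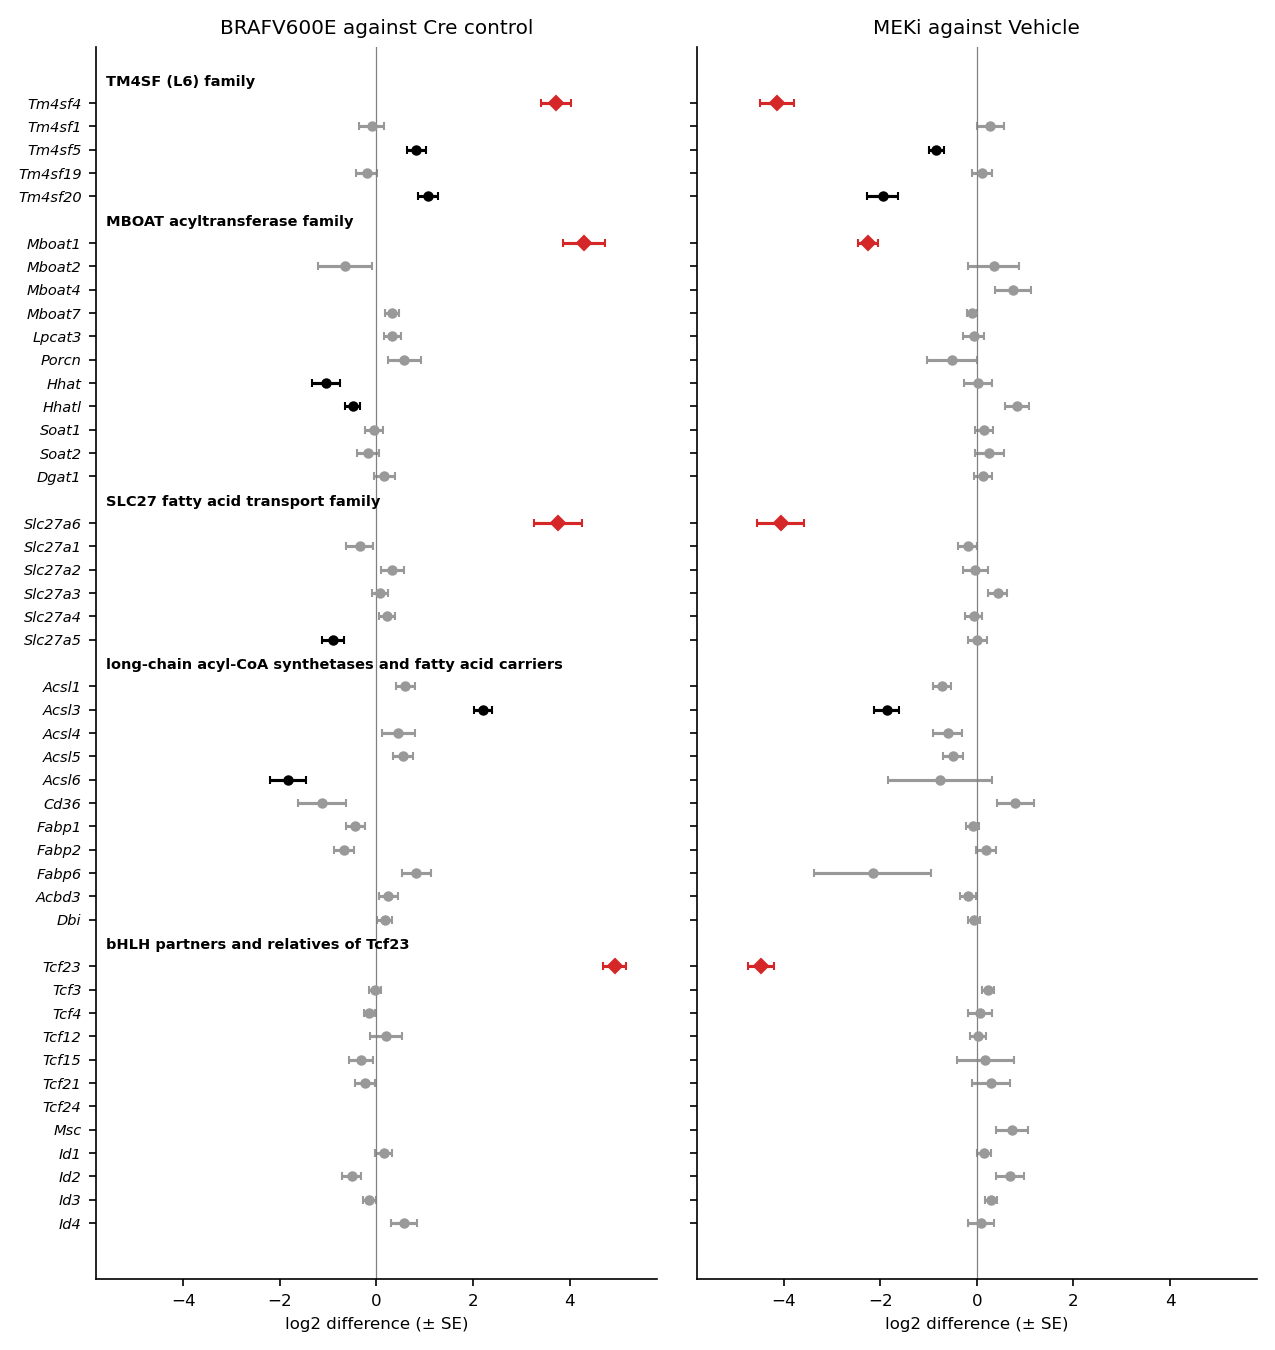
Difference on the log2 scale (x axis, with its SE) for each gene of 5 lists in BRAFV600E against Cre control (left) and MEKi against Vehicle (right), with the 5 genes as red diamonds, called relatives in black and relatives that did not pass in grey. Tm4sf20, Tm4sf5 and Acsl3 are black on both sides, while Hhat, Hhatl, Slc27a5 and Acsl6 are black on the left alone and the other relatives are grey. Rows without a point (Tcf24, and Mboat4 and Msc on the left) were not tested, and Slc27a6 is drawn at its measured differences, although its lower group was mostly (left) or wholly (right) below detection. The same holds for Acsl6 on the left.

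The wider output of the pathway moved in the direction of the 5 genes, as a description. The list of output genes was chosen with earlier results of these data known and includes Dusp6 and Etv4. Its counts are therefore no independent support. Of 22 MAPK output genes, 14 rose and 1 fell in BRAFV600E, where 6.18% of all genes were called higher and 6.26% lower, with a median of 0.73 against -0.02 over all tested genes. The largest rises were those of Etv4, Spry4, which restrains receptor signalling (2.19, limma adjusted p = 0.000617), Phlda1 (1.76, limma adjusted p = 0.00870) and Dusp4, another phosphatase of the MAP kinases (1.65, limma adjusted p = 0.000305). The gene that fell was Etv1, at -0.73 (limma adjusted p = 0.0358), and with slide as a block, within slide 1 or without scaling 0 of the list were called lower. The same held with the array median and without the filter on dim probes. It also held with any single array left out, other than Cre control replicate 5 and BRAFV600E replicate 1. Under MEKi 8 of 22 fell and 0 rose, against 0.884% and 1.09% of all genes, with a median of -0.94 against 0.04. Etv5 fell by 2.57 on the log2 scale (limma adjusted p = 0.00156), Spry4 by 2.34 (limma adjusted p = 0.00517) and Phlda1 by 2.14 (limma adjusted p = 0.0337, called in 7 of 16 alternatives). Within slide 1 the number that rose was 5, with slide as a block 10, and with the Y-linked level in the fit the number that fell under MEKi was 3.

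Genes next to the 5 on the chromosome mostly did not follow them. Of the 30 genes that are within 3 places of a member in the RefSeq gene order, 13 were tested, and 2 passed in BRAFV600E and 0 under MEKi, where their differences lay between -0.88 and 0.58. The 2 were Cad, an enzyme of pyrimidine synthesis near Tcf23 (log2 fold change 0.75, limma adjusted p = 0.0112), and Stambpl1, a deubiquitinase beside Ankrd22 (log2 fold change 0.81, limma adjusted p = 0.0361). These are 15.4% of those tested, against 12.4% of all genes called in either direction and 6.18% called higher. Under MEKi, Cad differed by -0.74 and Stambpl1 by -0.48, and they did not pass (limma adjusted p = 0.100 and 0.198). Their calls in BRAFV600E ended with slide as a block, but that of Cad held in 20 of 22 alternatives and that of Stambpl1 in only 10 of 22. Most of the tested neighbours lay near Tcf23 and Ankrd22, so the other members were hardly covered. Slc5a6, a vitamin transporter directly after Tcf23, differed by -0.02 (limma adjusted p = 0.964). Wwtr1, a transcriptional coactivator beside Tm4sf4, differed by -0.00299 (limma adjusted p = 0.997).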

How the data were processed

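Per the file headers, the authors extracted each 1-colour array with Agilent Feature Extraction (version 10.5.1.1 in the submitters' processing notes), which wrote a background-subtracted processed intensity per spot and per-spot marks of detection, saturation and outliers. The deposited intensity is linear and not scaled between arrays. The deposited marks, of another kind than an intensity, served as filters. The series matrix held the same intensity and was used as the alternative without scaling. The number of per-array columns without a match to a sample was 0.

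Control spots and outlier spots were left out, log2 of the processed signal was taken and the 75th percentile of each array was subtracted. Of 56605 probes, 34023 were named by accession, 9993 by symbol and 318 by synonym through the RefSeq gene table (GRCm38.p6, for names and gene order only), and 12271 were not named. The probe with the highest mean stood for a gene. Probe positions are those of the files (mm9). Whether a probe lies in an exon or UTR was not analysed here. Genes well above background on at least 6 of 12 or 4 of 8 arrays were fitted with limma (version 3.58.1, R 4.3.3; lmFit and eBayes, no covariates, each experiment on its own arrays), two-sided, and called below 0.05 after Benjamini-Hochberg adjustment. A normexp offset of 50 was used where normexp is named. The scripts were tested on simulated data.

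The 5 genes and all gene lists were chosen with earlier results of these data known. Named in addition were Dusp6, Etv4 and Braf, up to 4 called genes per list and comparison by size, close relatives of the 5 genes (Mboat2, Tm4sf1, Tm4sf5, Slc27a2, Slc27a4 and Tcf21), the 3 named genes on each side in gene order and the 3 genes most correlated over 20 arrays. Etv1 was named after its value was seen. Groups came from the labels. Replicate numbers follow deposition order and pair no arrays, and p-values measure the spread between mice as labelled. The number of arrays, not counting error, limits precision. Alternatives were other background corrections, scalings and filters, array weights, slide as a block or slide 1 alone, a Y-linked covariate and each array left out in turn.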

Additional observations from a re-analysis of the deposited data

Results flagged for a closer look

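Among 28 combinations of gene and group examined for the 5 genes, Dusp6 and Etv4, 3 had an array whose gap to its nearest neighbour was large for the range of its group, where chance alone gives about 1 in 20. Mboat1 was at 4.34 in BRAFV600E replicate 2, the highest array of its group. Ankrd22 was at -3.92 in MEKi replicate 4, the lowest of its group. Dusp6 was at 3.41 in Cre control replicate 4, again the lowest. Leaving out any of these arrays kept the direction of the differences of the 5 genes, which had to hold because the groups did not overlap.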

How the results depend on the processing

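The differences of the 5 genes kept their direction in all 160 alternatives, and 149 of these moved them by less than 1 SD between replicates. The groups did not overlap, so leaving out 1 array could not have turned a direction. Slide as a block and slide 1 alone gave the same differences, since slide 2 held only BRAFV600E arrays. They are therefore 1 check. Normexp background correction gave rises of 4.35 for Tcf23, 2.38 for Ankrd22 and 1.38 for Slc27a6, and MEKi minus Vehicle differences of -2.77 for Ankrd22 and -1.55 for Slc27a6. Without scaling between arrays, which shifted the median of all genes by 0.79 in BRAFV600E, the rises were 5.74 for Tcf23, 4.90 for Ankrd22, 5.11 for Mboat1 and 4.53 for Tm4sf4. Mboat1 rose by 5.07 both with slide as a block and within slide 1. With single arrays left out, the rises ranged from 4.81 to 5.06 for Tcf23, 3.92 to 4.23 for Ankrd22, 3.98 to 4.49 for Mboat1, 3.50 to 3.85 for Tm4sf4 and 3.48 to 3.96 for Slc27a6. The corresponding falls ranged from -4.61 to -4.28, -3.56 to -3.33, -2.38 to -2.15, -4.36 to -3.90 and -4.40 to -3.71. The number of calls between BRAFV600E and Cre control (2369, of which 1177 higher) was 4640 with normexp (1589 and 3051), 9334 without scaling (9157 and 177), 1535 with slide as a block (464 and 1071), 734 within slide 1 (193 and 541) and 1442 to 2860 with single arrays left out, lowest without Cre control replicate 3 and 1527 without replicate 2. The array median in place of the 75th percentile gave 1710 higher and 613 lower. For MEKi against Vehicle the count of 380 (210 higher and 170 lower) became 72 without scaling, 234 without the filter on dim probes, 988 with array weights, 53 with the Y-linked covariate and 76 to 376 with single arrays left out. It fell by more than 1.5 times without any one of MEKi replicates 1, 3 and 4 (76, 89 and 147) or Vehicle replicates 1, 3 and 4 (191, 117 and 98). Among genes named beside the 5, Hhatl (0.32), Lpcat2 (0.28) and Slc5a6 (0.79) turned from below 0 to above it without scaling in BRAFV600E, as did several that passed in neither fit. The shift of 0.79 common to all genes gives such turns by its construction. The relations with Dusp6 and Etv4 gave 0 calls under each alternative run, the 4 arrays left without the farthest pair being too few for a call. Their signs were less stable than this count. Without scaling only 10 of 20 kept their sign, r reached 0.92 and 4 had an unadjusted exact permutation p under 0.05. With quantile normalization 14 kept it, as with the array median, and 18 did with normexp or as deviations from the mean of group and slide. Counts of called genes per list under each alternative were chosen after seeing the data. Each of the 5 genes had 1 probe, so no other probe could be tried. No paired analysis was possible because replicate numbers follow deposition order and pair no arrays.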
